A study of Homo sapiens with 9 samples.

Results

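The integrated stress response genes described here were 10 genes: the transcription factors ATF4, ATF5, ATF3, DDIT3 and CEBPB, and the effectors TRIB3, DDIT4, SESN2, CHAC1 and ASNS. They were taken as a named set, and every array probe whose RefSeq accession belongs to one of them was used. The genes and all lists below were chosen with earlier results of these data known. Counts set beside all genes are therefore descriptions. This gave 14 probes, of which 4 read ATF3, 2 read CHAC1 and 1 read each of the other 8 genes. All 14 probes were well above background on all 9 arrays, and all 14 were tested, so that all 10 genes stand among the 16083 named genes with a tested probe. Where a gene had several probes, the brightest was used to count it and the others are given beside it.

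The arrays came from HEK293, a transformed line of human embryonic kidney origin, carrying a retroviral short hairpin RNA (shRNA). KD3 cells carried shRNA 3 and KD4 cells carried shRNA 4, both directed against SmcHD1 (gene SMCHD1), a chromatin protein of the SMC family. CTL cells carried the control shRNA NC5. All 3 groups had been infected with the same GFP-marked pQCXIP vector and selected with puromycin, and none received a further treatment, so that the infection, the selection and the GFP are common to all. The methods describe selection of infected cells and no cloning step. There were 3 arrays per group, named biological triplicates in the methods, with no word on whether the infections were separate. The p-values therefore measure the spread between these arrays, which may be technical.

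In the integrated stress response, kinases that sense uncharged tRNA, misfolded protein in the endoplasmic reticulum (ER), double-stranded RNA or haem shortage phosphorylate the initiation factor eIF2α. General translation then falls, while the mRNAs of ATF4 and ATF5 are translated better through upstream reading frames. ATF4 is a bZIP factor that pairs with C/EBP proteins and raises genes of amino acid supply, among them ASNS and CHAC1, together with the feedback regulators TRIB3 and DDIT3 (CHOP). An mRNA array measures the transcript of each gene, and says nothing of how much of it is translated or of the phosphorylation of eIF2α.

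The hairpins that define the groups are shown first, because every comparison is between them. Each is 68 bases long as the labels give it, 5′ to 3′, and the capitals mark the loop, which starts at base 30.
CTL: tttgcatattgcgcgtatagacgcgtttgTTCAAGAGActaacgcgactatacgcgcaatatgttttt
KD3: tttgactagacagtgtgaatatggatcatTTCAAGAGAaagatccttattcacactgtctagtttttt
KD4: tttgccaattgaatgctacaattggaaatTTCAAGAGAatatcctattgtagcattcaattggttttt

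The promoters of 3 of the genes hold the letters of the ATF4 composite element, TGATGNAA on either strand, at which ATF4 is known to bind with a C/EBP partner. RefSeq promoters of the build GRCh38.p14 (250 bases before to 50 bases after a start) were matched for all 10 genes. The element stood in those of ATF3, ASNS and CHAC1, which is 3 of 10 genes, against 4.46% of 27305 genes. The 10 genes have 19 promoters, of which 3 hold it, against 3.62% of 35116 promoters of the same length. A gene with several promoters has more windows in which to match. The window of ATF3 is that of the most upstream start of the gene. The 250 bases before the start are printed for these 3, on the strand of the gene, with the element in capitals. In CHAC1 it lies on the opposite strand and therefore reads TTGCATCA.
ATF3, chr1:212565157-212565406, plus strand, element 191 bases before the start: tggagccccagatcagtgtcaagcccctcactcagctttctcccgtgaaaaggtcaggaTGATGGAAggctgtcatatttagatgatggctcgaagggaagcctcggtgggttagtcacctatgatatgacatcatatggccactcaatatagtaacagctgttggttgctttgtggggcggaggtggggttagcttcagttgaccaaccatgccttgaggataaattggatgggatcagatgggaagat
ASNS, chr7:97872409-97872658, minus strand, element 68 bases before the start: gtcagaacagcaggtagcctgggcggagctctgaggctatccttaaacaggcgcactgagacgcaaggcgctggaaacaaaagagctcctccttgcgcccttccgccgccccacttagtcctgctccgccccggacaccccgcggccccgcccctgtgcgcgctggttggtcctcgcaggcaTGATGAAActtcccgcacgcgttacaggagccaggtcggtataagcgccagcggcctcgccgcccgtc
CHAC1, chr15:40953221-40953470, plus strand, element 209 bases before the start: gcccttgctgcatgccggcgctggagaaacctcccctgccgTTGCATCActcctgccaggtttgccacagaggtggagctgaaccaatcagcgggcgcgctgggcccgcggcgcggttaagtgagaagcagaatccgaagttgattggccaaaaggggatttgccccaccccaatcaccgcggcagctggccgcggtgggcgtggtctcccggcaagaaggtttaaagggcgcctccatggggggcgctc

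The full cAMP response element TGACGTCA was in none of the 10 genes' promoters and in 2.25% of all genes. Its shorter core TGACG, which the full element contains, was in 4 of 10 against 28.4% of all genes. The ER stress element was in none of the 10 and in 0.0916% of all genes. These are matches of letters in a window, not measured binding, and nothing about binding elsewhere follows from a window without a match.

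Before the results, some facts of the series bear on them. The deposited values were background-subtracted intensities of one-color Agilent arrays, with a median of 120 to 181 per array, 76.8% to 81.0% of spots well above background and no saturated spot. They were quantile normalized on the log2 scale, and replicate arrays correlated with an r of at least 0.9946. SMCHD1 itself fell in KD3 to 51.0% and in KD4 to 34.6% of CTL (brightest of 3 probes, limma adjusted p = 0.000214 and 1.81e-05). KD4 lay below KD3 by 0.56 on the log2 scale (adjusted p = 0.0195). All 7 markers of HEK293 and kidney lineage were well above background on all 9 arrays. Of these, 4 fell and 0 rose in KD3, where 14.8% of all tested genes fell and 10.4% rose. In KD4, 4 fell and 1 rose, where 19.8% of all tested genes fell and 14.7% rose. PAX2, a kidney transcription factor, differed most (-2.41 in KD3 and -2.65 in KD4 on the log2 scale), and LHX1, NEFL and NEFM also fell in both. The keratin KRT18 rose in KD4 (0.34), and KRT8 and VIM were not called in either knock-down. The KD3 call of NEFL and the KD4 call of KRT18 were lost without CTL replicate 3 (adjusted p = 0.0654 and 0.051). Of 8 markers of other cell types PECAM1, COL1A2, THY1 and ALB were not well above background throughout any group, while PTPRC, CD14, COL1A1 and MYOD1 were on all 9 arrays. Of these 4, COL1A1 (-0.37) and MYOD1 (-0.44) fell in KD3 and 0 were called in KD4. The part of these markers in the results below was not tested.

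One control array stood apart for these genes. CTL replicate 3 gave the highest signal of the 9 arrays for 8 of the 10 genes, whereas 15.4% of all tested genes were highest there. Among the 3 CTL arrays alone it was highest for 9 of the 10, against 28.0% of all genes. The same array was the highest of the 9 for 33 of 46 tested ATF4 target genes outside the set. The comparisons of the set and of these targets with CTL are therefore also given without it. The arrays lay on 2 slides, each holding all 3 groups, with 4 arrays on slide 1 and CTL replicate 3 among the 5 on slide 2.

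Most of the 10 genes were called lower than CTL in each knock-down. In KD3, 6 of the 10 genes fell (CEBPB, TRIB3, DDIT4, SESN2, CHAC1 and ASNS), where 14.8% of all genes fell, 4 were not called, and none rose, where 10.4% of all genes rose. In KD4, 8 of the 10 fell, the same 6 and ATF4 and ATF3, where 19.8% of all genes fell. ATF5 alone rose in KD4, where 14.7% of all genes rose. A call here is a Benjamini-Hochberg adjusted p under 0.05 in limma, adjusted over all tested probes. The median log2 difference over the 10 genes was -0.57 in KD3 and -0.66 in KD4, beside -0.01 and 0.00 over all genes tested. Because the set was chosen with earlier results of these data known, these shares do not measure how unusual it is. Both comparisons use the same 3 CTL arrays, so they are not independent of each other. In such bulk samples, fewer cells of a kind and less RNA per cell cannot be told apart.

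**Figure D1:**
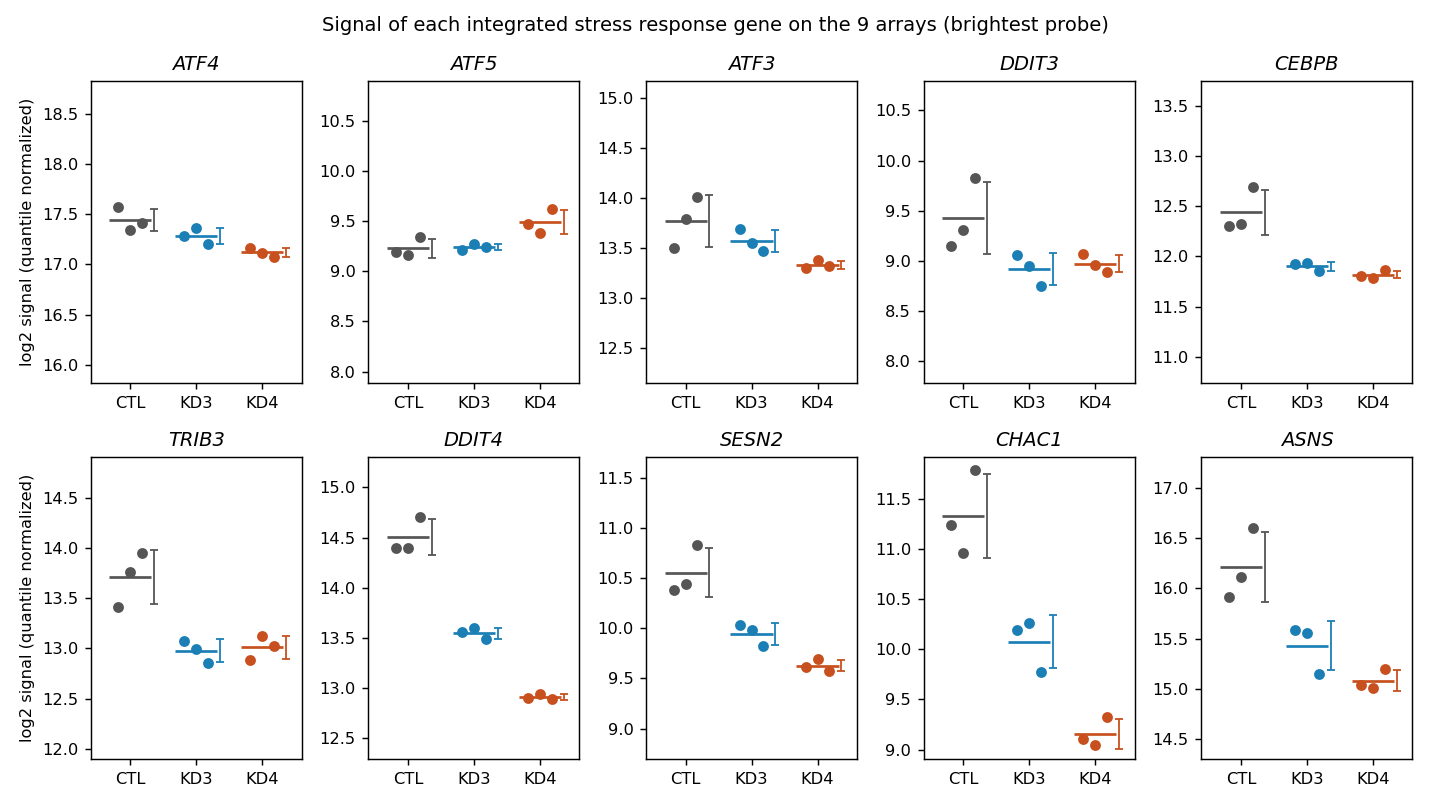
Quantile normalized log2 signal of the brightest probe of each of the 10 genes on the 9 arrays, with a point for each array (replicates 1 to 3 from left to right), a line at the group mean and a bar of 1 SD beside it (n = 3); every panel spans the same log2 range, and levels are not comparable between panels. The KD3 and KD4 points of CEBPB, TRIB3, DDIT4, SESN2, CHAC1 and ASNS all lie below the CTL points, and CTL replicate 3 is the highest point in 8 panels.

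Of the transcription factors, ATF4 is the one whose translation carries the response. Its log2 signal was 17.57, 17.35 and 17.41 in CTL, 17.28, 17.36 and 17.20 in KD3, and 17.16, 17.12 and 17.08 in KD4. The KD4 arrays all lay below the CTL and KD3 arrays, while KD3 overlapped CTL. ATF4 fell in KD4 by 0.32 ± 0.08 (SE) on the log2 scale, a loss of 20.1% of the signal (limma adjusted p = 0.017). In KD3 the difference was -0.16 ± 0.08 and was not called (adjusted p = 0.202). The KD4 call was lost without KD4 replicate 2 (adjusted p = 0.0512) or KD4 replicate 3 (adjusted p = 0.0601), and without CTL replicate 3 the KD4 difference was -0.34 (adjusted p = 0.0382).

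ATF5, a bZIP factor that is also translated under eIF2α phosphorylation, went the other way. Its log2 signal was 9.19, 9.16 and 9.34 in CTL, 9.21, 9.27 and 9.24 in KD3, and 9.47, 9.38 and 9.62 in KD4. All KD4 arrays lay above all CTL and KD3 arrays, and KD3 lay within the range of CTL. ATF5 rose in KD4 by 0.26 ± 0.08 on the log2 scale, which only just passed (limma adjusted p = 0.0473). The call held when KD4 replicate 2 or CTL replicate 3 was left out, and was lost without any of the other 7 arrays, with the slide as a block (adjusted p = 0.0624) and under 75th percentile scaling (adjusted p = 0.0754). It was also lost in the authors' log2 table (adjusted p = 0.0586), with no filter on dim probes (0.0688), with KD4 and CTL fitted alone (0.0892), with the replicate number as a block (0.0548) and in the methods' t-test (0.161). In KD3 the difference was 0.01 and changed sign, to -0.03, under 75th percentile scaling.

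ATF3, a stress-induced bZIP factor that acts downstream of ATF4, was read by 4 probes that did not behave alike. On the brightest, the log2 signal was 13.50, 13.79 and 14.01 in CTL, 13.69, 13.55 and 13.47 in KD3, and 13.30, 13.38 and 13.32 in KD4. KD4 lay wholly below both other groups, and KD3 overlapped CTL. ATF3 fell in KD4 by 0.43 ± 0.12 (limma adjusted p = 0.0306) and differed by -0.20 ± 0.12 in KD3, which was not called (adjusted p = 0.309). The next 2 probes also fell in KD4 (-0.32 and -0.59, adjusted p = 0.0493 and 0.00968). The remaining probe differed by 0.17 in KD4 and was not called (adjusted p = 0.516). The KD4 call on the brightest probe was lost without any single KD4 array, CTL replicate 2 or CTL replicate 3 (adjusted p = 0.0648 to 0.0822), and without CTL replicate 3 the differences were -0.08 in KD3 and -0.31 in KD4.

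DDIT3, which encodes the pro-apoptotic factor CHOP, was not called in any comparison. Its log2 signal was 9.15, 9.31 and 9.83 in CTL, 9.06, 8.95 and 8.75 in KD3, and 9.06, 8.96 and 8.89 in KD4. All knock-down arrays lay below all CTL arrays. The differences were -0.51 ± 0.17 in KD3 and -0.45 ± 0.17 in KD4 on the log2 scale (limma adjusted p = 0.0653 and 0.0741). The CTL arrays spread by an SD of 0.36, against 0.16 and 0.09 in KD3 and KD4. Without CTL replicate 1 both differences passed (adjusted p = 0.0326 and 0.0329), and without CTL replicate 3 they shrank to -0.31 and -0.25 (adjusted p = 0.121 and 0.155).

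CEBPB, a C/EBP factor of the kind that partners ATF4, was the only one of the 5 factors called lower in both knock-downs. DDIT3 differed by -0.51 and -0.45 and was not called. The log2 signal of CEBPB was 12.30, 12.32 and 12.70 in CTL, 11.92, 11.93 and 11.85 in KD3, and 11.81, 11.79 and 11.86 in KD4. Neither knock-down overlapped CTL. CEBPB fell by 0.54 ± 0.11 in KD3 and fell by 0.62 ± 0.11 in KD4 on the log2 scale, a loss of 31.1% and 35.0% (limma adjusted p = 0.00882 and 0.00337). Without CTL replicate 3 the values were -0.41 and -0.49, and both calls held under every array left out.

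Among the 5 effectors the differences from CTL on the log2 scale ranged from -1.25 to -0.61 in KD3 and from -2.17 to -0.70 in KD4, beside -0.54 to 0.01 and -0.62 to 0.26 among the 5 factors. CHAC1, a γ-glutamylcyclotransferase that degrades glutathione, had the largest fitted difference of the 10. Its log2 signal on the brighter probe was 11.24, 10.96 and 11.78 in CTL, 10.19, 10.27 and 9.78 in KD3, and 9.10, 9.04 and 9.32 in KD4. The 3 groups did not overlap, with CTL above KD3 and KD3 above KD4. CHAC1 fell by 1.25 ± 0.21 in KD3, a loss of 57.9%, and fell by 2.17 ± 0.21 in KD4, a loss of 77.8% (limma adjusted p = 0.00427 and 0.000221). The other probe also fell (-0.94 and -1.83). Without CTL replicate 3 the values of the brighter probe were -1.02 and -1.94 (adjusted p = 0.00849 and 0.000498).

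DDIT4 (REDD1) restrains the growth kinase mTORC1, and is also known as a target of p53, glucocorticoids and hypoxia. Its log2 signal was 14.40, 14.40 and 14.71 in CTL, 13.56, 13.59 and 13.49 in KD3, and 12.90, 12.94 and 12.89 in KD4. Again the 3 groups were fully separate in that order, and the SD was 0.06 in KD3 and 0.03 in KD4, against 0.18 in CTL. DDIT4 fell by 0.96 ± 0.09 in KD3, a loss of 48.4%, and fell by 1.59 ± 0.09 in KD4, a loss of 66.8% (limma adjusted p = 0.000281 and 1.81e-05). Leaving out CTL replicate 3 gave -0.85 and -1.49.

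ASNS, the asparagine synthetase that is a classical ATF4 target, had a log2 signal of 15.92, 16.12 and 16.60 in CTL, 15.59, 15.56 and 15.14 in KD3, and 15.04, 15.01 and 15.20 in KD4. Neither knock-down overlapped CTL, while KD3 replicate 3 lay within the KD4 range. ASNS fell by 0.78 ± 0.18 in KD3 and fell by 1.13 ± 0.18 in KD4, a loss of 41.8% and 54.3% (limma adjusted p = 0.0183 and 0.00258). The KD3 call was lost without KD3 replicate 3 (-0.64, adjusted p = 0.0582). With CTL replicate 3 left out the values were -0.59 and -0.94 (adjusted p = 0.0396 and 0.00555).

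TRIB3, a pseudokinase that ATF4 and CHOP induce and that feeds back on them, had a log2 signal of 13.42, 13.76 and 13.95 in CTL, 13.08, 13.00 and 12.86 in KD3, and 12.89, 13.12 and 13.02 in KD4. The knock-downs overlapped each other, and neither overlapped CTL. TRIB3 fell by 0.73 ± 0.14 in KD3 and fell by 0.70 ± 0.14 in KD4, a loss of 39.8% and 38.4% (limma adjusted p = 0.00675 and 0.00619). When CTL replicate 3 was left out they were -0.61 and -0.58 (adjusted p = 0.0206 and 0.0187).

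SESN2 encodes sestrin 2, a leucine sensor upstream of mTORC1 that ATF4 and p53 are both known to induce. Its log2 signal was 10.39, 10.44 and 10.83 in CTL, 10.03, 9.98 and 9.82 in KD3, and 9.62, 9.69 and 9.58 in KD4. The 3 groups did not overlap, in the order CTL, KD3, KD4. SESN2 fell by 0.61 ± 0.12 in KD3 and fell by 0.93 ± 0.12 in KD4, a loss of 34.4% and 47.4% (limma adjusted p = 0.0088 and 0.00092). Without CTL replicate 3 the values were -0.47 and -0.79 (adjusted p = 0.0125 and 0.0013).

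Counted by overlap alone, all KD3 arrays lay below all CTL arrays for 7 of the 10 genes, against 23.4% of all genes. All KD4 arrays lay below all CTL arrays for 9 of the 10, against 28.4% of all genes. With a fold of at least 1.8 added to the test in each knock-down, the threshold of the methods, 2 of the 10 fell in both (CHAC1 and DDIT4), against 2.4% of all genes. At an unadjusted p under 0.05, limma gave 7 genes in KD3 and all 10 in KD4, against 39.1% and 46.7% of all genes. The methods' t-test, which does not share the spread between genes, gave 6 and 8 unadjusted, against 29.2% and 37.4% of all genes, and 0 and 0 after Benjamini-Hochberg adjustment over all probes, against 2.33% and 8.56%.

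**Figure D2:**
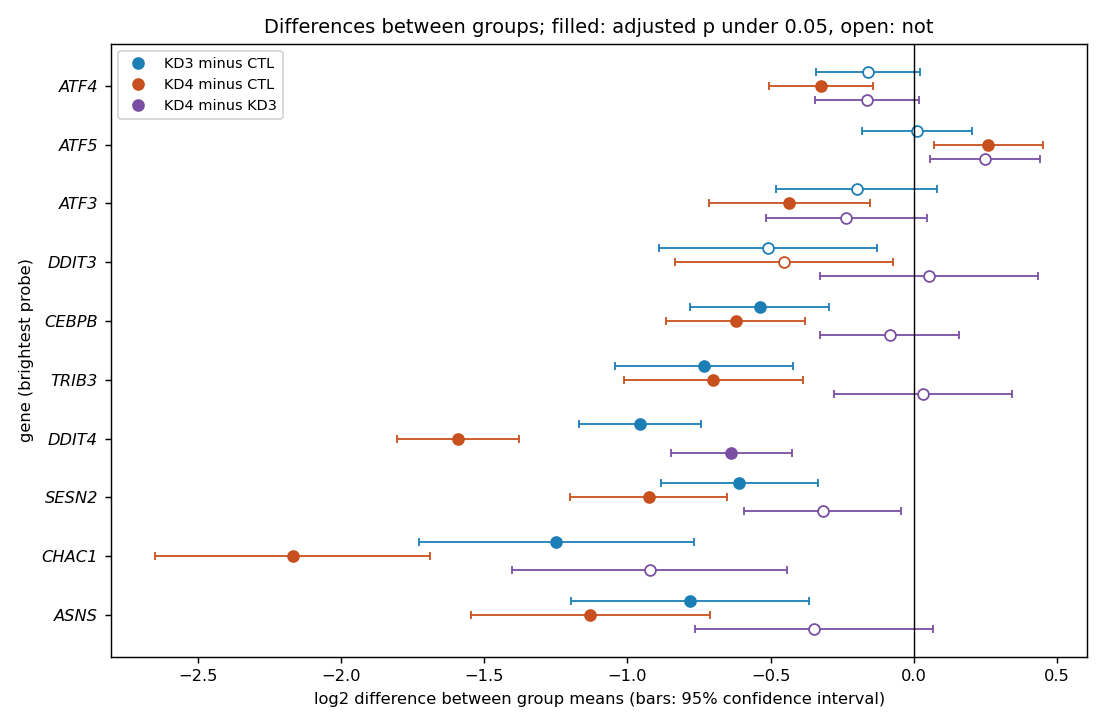
Log2 difference between group means for the brightest probe of each gene (KD3 minus CTL, KD4 minus CTL and KD4 minus KD3, 3 arrays per group), with 95% confidence intervals of the limma fit that are not corrected for the number of genes. Filled points have an adjusted p under 0.05: 6 genes in KD3, 9 in KD4 and DDIT4 between the knock-downs.

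The knock-downs were also compared with each other directly. Here DDIT4 alone fell in KD4 against KD3, by 0.64 ± 0.09 on the log2 scale (limma adjusted p = 0.014), which is 1 of 10 genes where 1.89% of all genes fell. None of the 10 rose, where 1.36% of all genes rose. The difference of DDIT4 kept its size, between -0.67 and -0.61, whichever array was left out. Its adjusted p was 0.0435 to 0.0619 without a single knock-down array and 0.00629 to 0.0226 without a single CTL array, and the call was lost without each of KD3 replicates 1 and 2 and each KD4 array. All KD4 arrays lay below all KD3 arrays for 5 of the 10 genes (ATF4, ATF3, DDIT4, SESN2 and CHAC1), against 17.5% of all genes. CHAC1 differed by -0.92 (95% interval -1.40 to -0.44) and its other probe by -0.89, and neither was called (adjusted p = 0.0622 and 0.0596). CHAC1 was called without CTL replicate 3 (adjusted p = 0.0326), although that array enters this comparison only through the estimate of the spread. SESN2 differed by -0.32 (-0.59 to -0.04) and ASNS by -0.35 (-0.76 to 0.07). For TRIB3, CEBPB and DDIT3 the intervals included 0, at -0.28 to 0.35, -0.33 to 0.16 and -0.33 to 0.43, which leaves room for differences of that size in either direction.

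Across the arrays left out in turn, 5 to 7 of the 10 genes fell in KD3 and 6 to 9 in KD4. Without CTL replicate 3 they numbered 6 and 7, where 11.3% and 16.1% of all genes fell. The medians over the 10 genes were then -0.44 and -0.54, beside -0.02 and -0.01 over all genes. CEBPB, TRIB3, DDIT4, SESN2 and CHAC1 were called lower in both knock-downs under each of the 9 arrays left out. Within slide 1, which holds a single CTL array, the differences of these 5 genes lay between -1.25 and -0.41 in KD3 and between -2.13 and -0.49 in KD4. Within slide 2 they lay between -1.10 and -0.58 in KD3 and between -2.19 and -0.68 in KD4. On slide 1 the differences of DDIT3 were only -0.24 and -0.08, and ATF3 differed by 0.07 in KD3. With the slide as a block in the fit, 6 genes fell in KD3 and 8 in KD4, and the shares of all genes under that fit are not given here. In the main fit of all 9 arrays, 6 of the 10 genes were called lower in both knock-downs, against 1950 of 16083 genes.

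**Figure D3:**
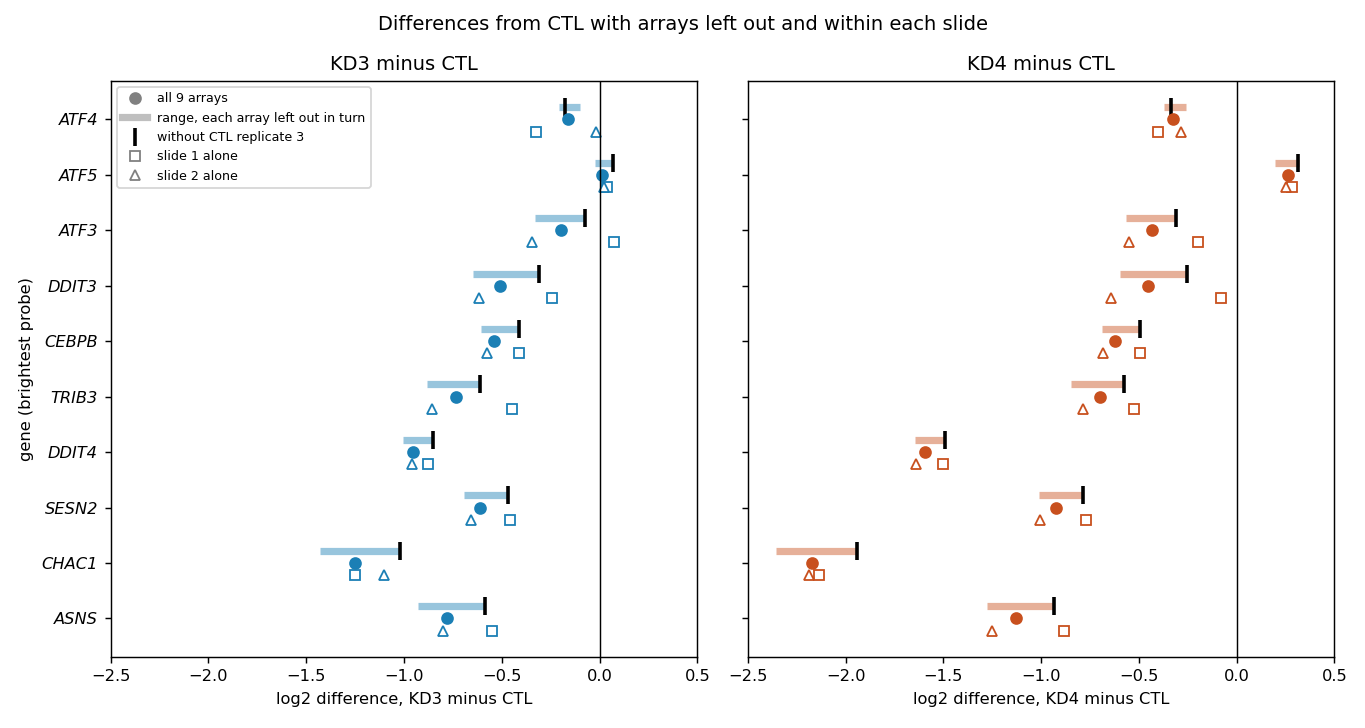
Log2 difference from CTL for the brightest probe of each gene in KD3 (left) and KD4 (right), with all 9 arrays (filled point), as the range over the 9 arrays left out in turn (thick line, with a black tick for the value without CTL replicate 3), and within slide 1 (square) or slide 2 (triangle). Leaving out CTL replicate 3 gives the value nearest 0 of the range for 8 genes in KD3, and DDIT4 and CHAC1 stay furthest from 0 on either slide.

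The genes upstream of the set showed no common direction. Of all genes, 14.8% fell and 10.4% rose in KD3, and 19.8% fell and 14.7% rose in KD4. Of 8 eIF2α kinases and their regulators, 1 fell in KD3 and 2 in KD4 and none rose, with medians of -0.12 and -0.16. EIF2AK4 (GCN2), the kinase that senses uncharged tRNA, fell by 0.32 in KD3 and fell by 0.69 in KD4 (limma adjusted p = 0.0263 and 0.000619). The other that fell in KD4 was IMPACT (-0.43, limma adjusted p = 0.0087). IMPACT is an inhibitor of GCN2, not an activator, and was named after its values were seen. Of 7 tested subunits of eIF2 and of its exchange factor eIF2B, 1 rose and 1 fell in KD3, and 3 rose and 1 fell in KD4. EIF2B2 rose by 0.52 and 0.56, and EIF2S2, the β subunit of eIF2, fell (-0.29 and -0.33). Of 5 subunits of the phosphatases that reverse the phosphorylation, only the catalytic subunit PPP1CB was called, and it rose by 0.61 and 0.52. Without CTL replicate 3 no kinase and no subunit of eIF2 or eIF2B fell in KD3, since the calls of EIF2AK4 and EIF2S2 were lost there (adjusted p = 0.0584 and 0.0582), while both kept their KD4 calls. The other counts of these 3 lists did not change.

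Among 15 tested bZIP factors and partners outside the set, 2 rose and 2 fell in KD3, and 3 rose and 3 fell in KD4. These counts lay near the shares of all genes, of which 10.4% rose and 14.8% fell in KD3. In KD4 14.7% rose and 19.8% fell. JDP2, a repressor related to ATF3, fell by 0.73 in KD3 and fell by 1.33 in KD4 (limma adjusted p = 0.0115 and 0.000531). CEBPA, another C/EBP factor, fell (-0.37 and -0.43), and JUN, the AP-1 subunit with which ATF3 can pair, rose by 0.34 and 0.56. The list medians were 0.06 and 0.03. Only 1 of these genes rose in KD3 without CTL replicate 3.

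Downstream of the set, those known targets of ATF4 that were called were all lower than in CTL. Over 4 lists of 46 tested genes together, 18 fell, 28 were not called and 0 rose in KD3, where 14.8% of all genes fell and 10.4% rose. In KD4, 35 fell, 11 were not called and 0 rose, where 19.8% of all genes fell and 14.7% rose. The same shares apply to the single lists that follow. The medians were -0.33 and -0.50, beside -0.01 and 0.00 over all genes. Without CTL replicate 3, which was the highest array for most of them, 14 and 29 fell, with medians of -0.25 and -0.45. Of all genes, 11.3% and 16.1% fell then.

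Of 14 enzymes of amino acid and one-carbon metabolism, 6 fell in KD3 and 10 in KD4. Ranked by the smaller of their 2 differences, the first was PCK2, the mitochondrial PEP carboxykinase (-1.29 in KD3 and -1.94 in KD4). It was followed by PHGDH, the first enzyme of serine synthesis (-0.76 and -0.73), and by the alanine transaminase GPT2 (-0.61 and -0.77). Of 10 amino acid transporters, 5 fell in KD3 and 10 in KD4, among them the glycine transporter SLC6A9 (-0.80 and -1.56). SLC7A5 (-0.66 and -0.69) and SLC43A1 (-0.64 and -0.98), carriers of large neutral amino acids, also fell. Leaving out CTL replicate 3, 5 enzymes and 5 transporters fell in KD3, and 10 enzymes and 7 transporters fell in KD4. SLC6A9 was also lower in KD4 than in KD3, by 0.77 (limma adjusted p = 0.0228).

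Of 13 ATF4 targets that encode aminoacyl-tRNA synthetases or a tRNA exporter, 6 fell in KD3 and 8 in KD4, including AARS1 (-0.59 and -0.54), CARS1 (-0.43 and -0.49) and the exporter XPOT (-0.38 and -0.58). These counts were 3 and 7 without CTL replicate 3, and the KD3 call of XPOT was among those lost (adjusted p = 0.0618). The 8 other cytosolic synthetases, which are not among those targets, held 1 that rose in KD3 and 3 that rose in KD4, and 0 that fell in either. RARS1 alone rose, in both knock-downs, once CTL replicate 3 was left out. Over all arrays its differences were 0.30 and 0.35. Of 9 tested secreted factors and other effectors, 1 fell in KD3 and 7 in KD4. Among those 7, FGF21 and INHBE were dim (mean log2 4.85 and 4.46 in CTL) and well above background on 8 arrays. The one that fell in both was the lipoprotein receptor VLDLR (-0.55 and -0.91), and without CTL replicate 3 the counts were 1 and 5.

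**Figure D4:**
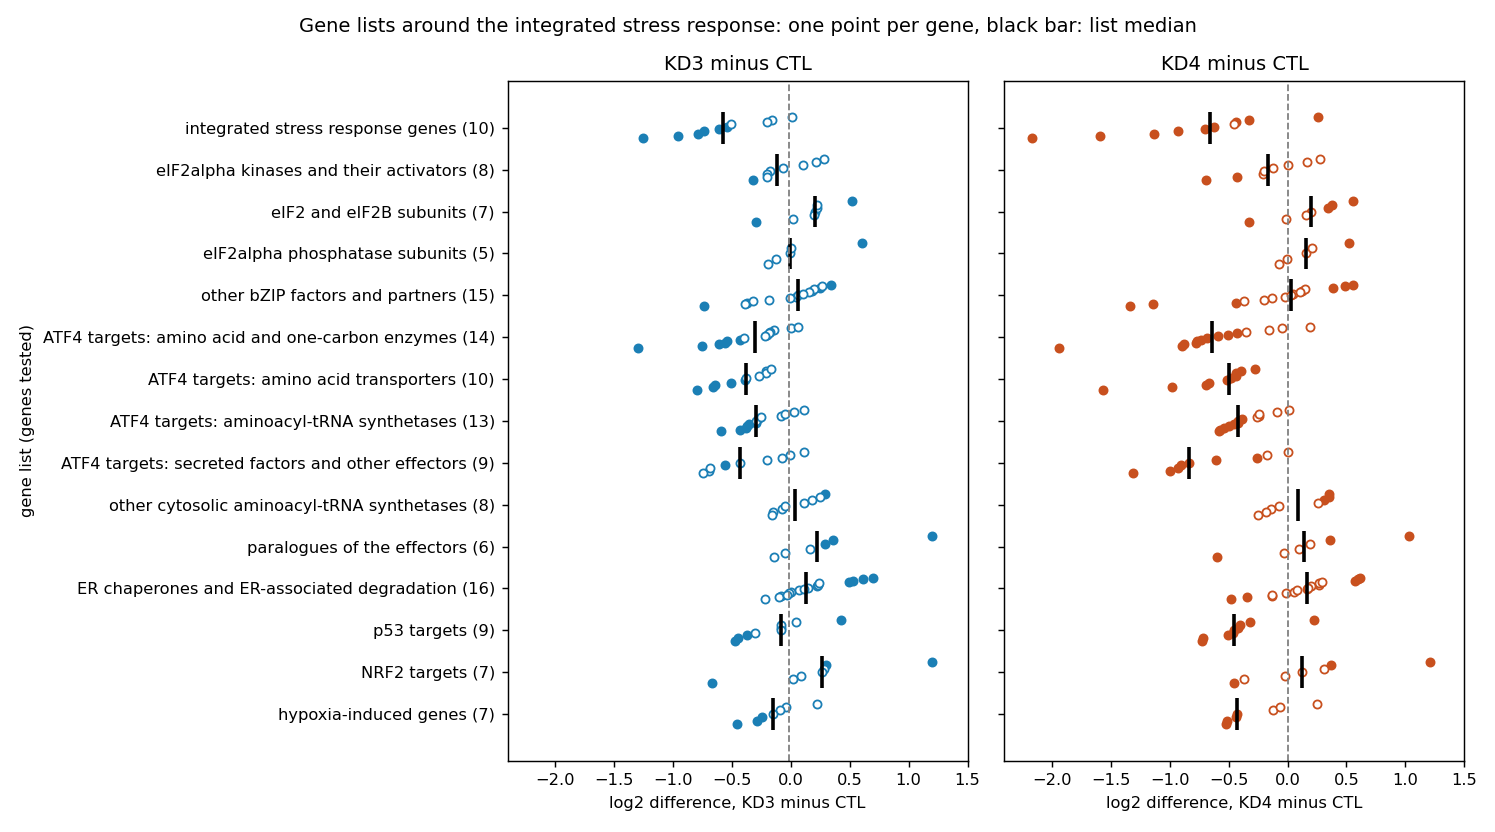
Log2 difference from CTL of each tested gene (brightest probe) in the 10-gene set and 14 further lists, for KD3 (left) and KD4 (right); filled points have a limma adjusted p under 0.05, black bars are list medians, the number of tested genes is in brackets and the dashed line is the median of all 16083 genes. The 10-gene set and the 4 lists of ATF4 targets have medians between -0.29 and -0.83. The p53 targets and the hypoxia-induced genes have medians of -0.08 and -0.15 in KD3, and of -0.45 and -0.43 in KD4, which lie in that range. The eIF2 subunits, the other bZIP factors, the other synthetases, the paralogues, the ER chaperones and the NRF2 targets have medians above 0 in both knock-downs.

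The paralogues of the effectors moved in both directions. DDIT4L, the paralogue of DDIT4, rose by 1.20 in KD3 and 1.03 in KD4 (limma adjusted p = 0.00384 and 0.00571), where DDIT4 fell. DDIT4L was dim, with a mean log2 of 4.04 in CTL beside 14.50 for DDIT4. It was well above background on 8 arrays and not on all, so the size of its rise is less certain. SESN3, a sestrin like SESN2, rose by 0.36 in both knock-downs. SESN1, the remaining sestrin, was not called in KD3 (-0.05) and fell in KD4 by 0.60 (adjusted p = 0.000872), where it also lay below KD3 by 0.55 (adjusted p = 0.0114). SESN1 is the 1 paralogue that fell, and was named after its values were seen. So was TRIB2, a paralogue of TRIB3 and the 1 paralogue called higher in KD4 than in KD3 (0.32, limma adjusted p = 0.0392). TRIB2 was not called against CTL. Of the 6 paralogues tested, 3 rose and 0 fell in KD3, where 10.4% of all genes rose and 14.8% fell. In KD4, 2 rose and 1 fell, where 14.7% of all genes rose and 19.8% fell. The rises in KD3 numbered 2 without CTL replicate 3.

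Lists of other stress programmes were set beside the genes for comparison. Their counts stand beside 14.8% of all genes that fell and 10.4% that rose in KD3, and 19.8% and 14.7% in KD4. Of 16 ER chaperones and degradation factors, which the unfolded protein response raises, 4 rose and 0 fell in KD3, and 3 rose and 2 fell in KD4. HSPA5 (BiP) rose by 0.53 and 0.57, DNAJB9 by 0.70 and 0.62, and SDF2L1 by 0.49 and 0.60. Of 9 p53 targets, 1 rose and 3 fell in KD3, and 1 rose and 8 fell in KD4. Among them were CDKN1A (-0.47 and -0.41), BBC3 (-0.44 and -0.71) and PHLDA3 (-0.37 and -0.46). Of 7 hypoxia-induced genes 3 fell in KD3 and 4 in KD4, among them PDK1 (-0.28 and -0.51), NDRG1 (-0.45 and -0.53) and BNIP3 (-0.24 and -0.44). Of 7 NRF2 targets 2 rose and 1 fell in each knock-down. HMOX1, haem oxygenase 1, rose by 1.19 and 1.21, TXNRD1 rose by 0.30 and 0.37, and SRXN1 fell (-0.66 and -0.45). When CTL replicate 3 was left out, no p53 target rose in KD4 and 1 ER factor fell there. In KD3, 1 p53 target still rose, and the calls of PHLDA3 and BNIP3 were lost (limma adjusted p = 0.113 and 0.0501). The part of the p53, hypoxia and NRF2 programmes in the levels of DDIT4, SESN2 and the other genes of the set was not tested.

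The genes outside the set whose signal was most like that of 3 of its members over the 9 arrays were found by Pearson's r over 16073 genes. They are a description, since the points fall into the same 3 groups, share arrays and normalization, and were selected as the highest values. Closest to ATF4 were RCN1 (r = 0.971), ZNF354A (0.966) and ZIC4 (0.957). Closest to DDIT3 were YPEL1 (r = 0.981), CENPU (0.966) and ZCWPW1 (0.960). Closest to TRIB3 were STOML1 (r = 0.995), LOXL3 (0.988) and LAMA3 (0.986). Within the set, the highest r of ATF4 was with CHAC1 (0.886), and those of DDIT3 and TRIB3 were with CEBPB (0.908 and 0.946). The lowest r of all 3 was with ATF5 (-0.70, -0.17 and -0.34).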

How the data were processed

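Total RNA of 9 cultures, 3 each of KD3, KD4 and CTL, was labelled with Cy3 and hybridized to one-color Agilent SurePrint G3 arrays. The authors deposited the scanner intensity of every spot, extracted with Agilent Feature Extraction 10.10 and background-subtracted, and a table of log2 values that they had normalized between arrays in GeneSpring (the methods write quintile, read here as quantile). That table was an alternative here. Against the values used it differed by a median of -0.08.

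Control spots and outlier spots (260 to 634 of 58717 per array) were left out. Log2 intensities underwent quantile normalization in limma 3.58.1 (R 4.3.3), and the spots of each probe were then averaged. A probe was kept if all 3 arrays of some group called it well above background, which left 32277 of 42405 probes. These entered a single fit of all arrays (lmFit and eBayes, 1 mean per group, Benjamini-Hochberg adjustment). Of the 42405 probes, 25422 were named through their RefSeq accession, for 19483 genes. The number of arrays limits the precision, and 95% intervals are those of the fit. Leaving out an array kept the values normalized over all 9. The fit was tested on simulated data. Every column of per-sample values matched a sample.

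The 10 genes and all lists were chosen with earlier results of these data known. All 10 genes are named. From each other list up to 3 genes are named, out of those called in the same direction in both knock-downs, ranked by the smaller of their 2 differences. Where none was, up to 2 with the largest difference are named. For ATF4, DDIT3 and TRIB3 the 3 genes nearest in pattern are named. NEFL and NEFM, which the rule also names among the HEK293 and kidney markers, differed by -0.33 and -1.21 in KD3 and by -0.41 and -1.24 in KD4. Sequences are from the labels and from RefSeq promoters. Other alternatives were 75th percentile scaling, normexp background correction with offset 50, other filters on dim probes, the methods' t-test, separate fits for each comparison, and the replicate number or slide as a block.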

Additional observations from a re-analysis of the deposited data

Results flagged for a closer look

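The difference of DDIT4 between the knock-downs stood out because the 2 shRNAs had effects of unequal size against the same CTL arrays. DDIT4 differed by -0.96 in KD3 and by -1.59 in KD4 on the log2 scale, and the direct comparison gave -0.64 for KD4 minus KD3 (limma adjusted p = 0.014), with the 3 KD4 arrays below the 3 KD3 arrays. SMCHD1 differed between the same arrays by -0.56, and whether this bears on DDIT4 was not tested.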

How the results depend on the processing

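Every called difference of the set kept its direction under every alternative run. Under the Benjamini-Hochberg adjusted t-test of the methods, 0 genes of the set were called in KD3, in KD4, between the knock-downs or at 1.8-fold in both, and 0 and 8 ATF4 target genes were called; without the adjustment 4 genes of the set differed between the knock-downs. That count was 2 with normexp, with only probes well above background on all 9 arrays, and with each comparison fitted alone. With the replicate number as a block it was 0, and 7 genes were called in KD4 instead of 9, without ATF5 and ATF3. Same-numbered arrays deviated together with r of -0.08 to 0.14, and arrays with other numbers with r of -0.14 to 0.14. No strong pairing by number was seen, which cannot exclude that same-numbered cultures were handled together. With each array left out in turn, 0 to 2 genes of the set differed between the knock-downs, 5 to 7 in KD3, 6 to 9 in KD4 and 2 to 3 at 1.8-fold in both, and 13 to 21 and 27 to 36 ATF4 target genes differed in KD3 and KD4. ATF5 in KD3, not called, turned from 0.01 to -0.026 under 75th percentile scaling, to -0.0029 without KD3 replicate 2, to -0.0078 without CTL replicate 1 and to -0.024 without CTL replicate 2, and was 0.066 without CTL replicate 3. DDIT3 was called under normexp (-0.44 and -0.43), and the KD4 call of ATF3 was lost without a filter on dim probes (adjusted p = 0.0529) and with KD4 and CTL fitted alone (0.0562). The cause of these changes was not tested. For most of these alternatives the share of all genes is not given here, so the counts describe the set alone.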
